A study of Mus musculus with 6 samples.

Results

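The genes described here encode the Polycomb and trithorax machinery, the enzymes that write and oxidise DNA methylation, and chromatin factors that work with them. They came from a list of 38 gene symbols chosen by function, with earlier results of these data known. A member was read through every non-control probe set to which the platform annotation gives exactly 1 symbol, and 32 of the 38 genes had at least 1. They are 32 of 12393 genes so named on the array, and their 70 probe sets are among 22626 non-control probe sets. Ash1l, Rbbp5, Tet2, Tet3, Kdm6b and Suv39h1 had no such probe set and were not analysed here. Each gene was represented by its probe set with the highest mean over the arrays, called its brightest, and the others served as a check.

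The samples were 3 LSK preparations from Gfi1 knockout mice and 3 from wild-type mice, all sorted by flow cytometry from bone marrow, each hybridised to 1 single-colour Affymetrix array. LSK cells are the lineage-negative, Sca-1-positive, Kit-positive fraction in which haematopoietic stem cells and early progenitors are enriched, and Gfi1 is a zinc finger repressor active in these cells and in their granulocytic and lymphoid offspring. The labels number the samples 5, 7 and 8 in each group. They name no treatment, strain, age, sex or allele, and do not say whether a sample was 1 mouse or a pool.

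Polycomb repressive complex 1 (PRC1) ubiquitinates histone H2A and compacts chromatin, and Polycomb repressive complex 2 (PRC2) methylates histone H3 at genes kept silent. Trithorax methyltransferases place the opposing mark of active promoters and enhancers, while DNA methyltransferases add, and Tet enzymes oxidise, methyl groups on cytosine. In haematopoietic stem cells these systems are known for holding self-renewal and differentiation programmes in place, and several of their genes are mutated in myeloid neoplasms.

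Most of these genes gave differences that 3 arrays against 3 could not tell from 0. The histone demethylase gene Kdm5b fell in the knockout-labelled arrays, and both of its probe sets passed the test. Of the 29 members bright enough to test, 0 rose and 1 fell at an adjusted p under 0.05 by limma, with Benjamini-Hochberg adjustment over 13575 probe sets. At that threshold 1.44% of all tested probe sets passed in the higher direction and 2.19% in the lower direction, so the share of members that fell, 3.45%, rests on 1 gene.

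Without adjustment, limma's p was under 0.05 for 0 members in the higher and 6 in the lower direction, Kdm5b, Kmt2a, Jarid2, Ezh1, Rnf2 and Kdm5a, while 9.08% of all tested probe sets reached that level in the higher and 10.5% in the lower direction. The 3 knockout-labelled arrays all lay below the 3 wild-type arrays for 5 of the 29 members (17.2%), the same genes without Kmt2a, against 12.1% of all tested probe sets. They all lay above for 1 member, Ash2l, against 11.9% of all tested probe sets. A difference below 0 was found for 22 of 29 members (75.9%), against 51.1% of all tested probe sets. The median difference was -0.13 over the members and -0.01 over all tested probe sets. Here and below, a difference is knockout-labelled minus wild-type arrays in mean log2(signal + 16), in which dim probe sets are pulled towards 0.

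**Figure D1:**
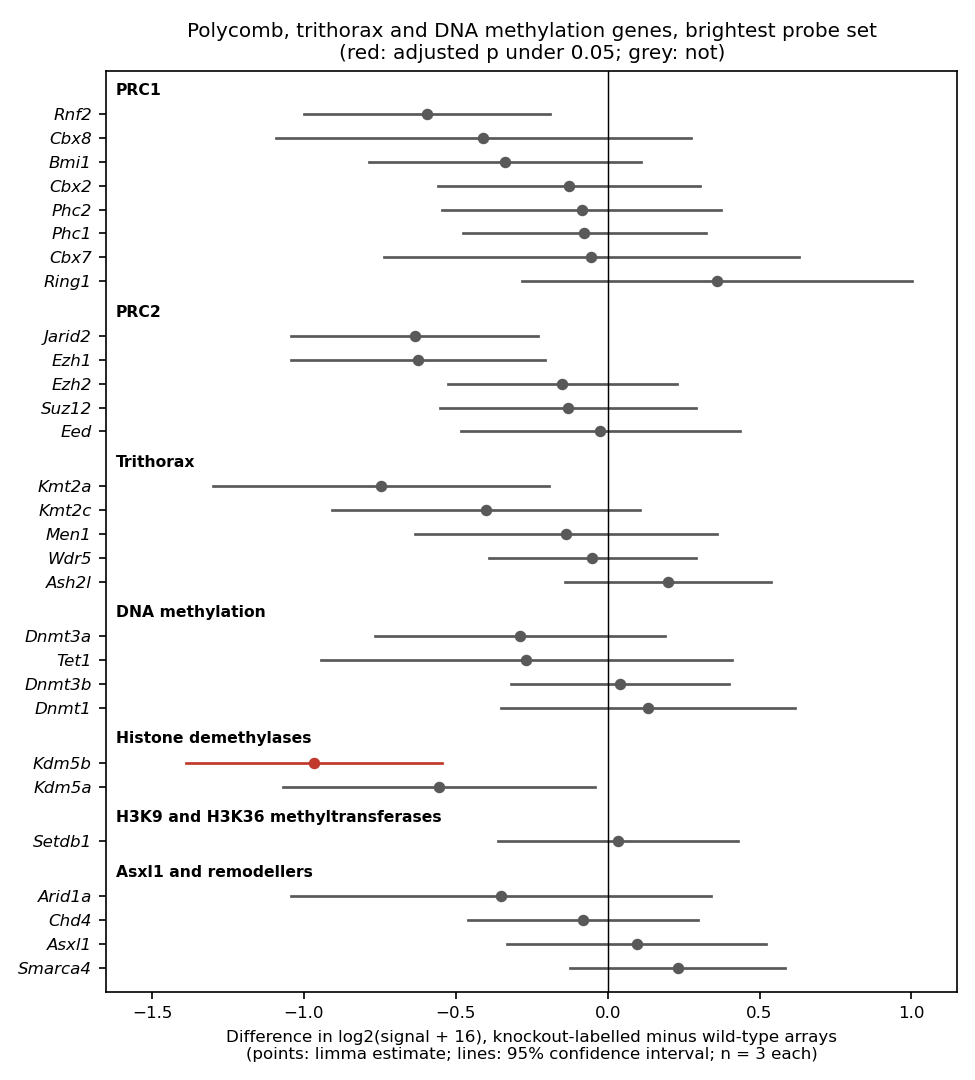
Difference in log2(signal + 16), knockout-labelled minus wild-type arrays (n = 3 each), of the 29 tested members by role, each by its brightest probe set; points are limma estimates, lines 95% confidence intervals, and red marks an adjusted p under 0.05. Kdm5b at -0.97 is the 1 gene in red, and 23 of the 29 intervals hold 0.

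The arrays limit what can be said of the rest. The 95% confidence interval of the difference held 0 for 23 of the 29 members and lay wholly below 0 for 6. For 20 members the whole interval lay within 1 log2 unit of 0. The intervals reached 0.43 log2 units to either side at the median, and between 0.34 and 0.69 over the members. A gene that missed the threshold has therefore not been shown to be equal in both groups.

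Some facts of the arrays stand beside every value below. Gfi1, the gene the knockout should remove, showed no fall on the arrays so labelled, with signals of 692, 1163 and 1737 on knockout-labelled arrays 5, 7 and 8, against 632, 608 and 723 on wild-type arrays 5, 7 and 8. The difference was 0.76 ± 0.28 (SE; limma adjusted p = 0.148), and without knockout-labelled array 5 it was 1.105 with a limma adjusted p of 0.0352, the lowest of 16 alternatives (0.0352 to 0.467). The labels do not say which part of Gfi1 was deleted or whether its probe set reads it, so every direction here rests on the labels of the arrays. Of the markers of LSK cells, 8 were tested and 3 (Kit, Flt3 and Hlf) fell, and their summed signal was 25126 to 28972 on knockout-labelled arrays, against 33375 to 37565 on wild-type arrays. All 8 were brighter than the array's Bacillus spike-in controls on every array, and Ly6a, the gene of Sca-1, was not analysed here. Summed neutrophil markers (7 genes, 5 fell) were 4721 to 12312 on knockout-labelled arrays, against 19776 to 40644 on wild-type arrays. Summed monocyte markers (7 genes, 3 rose) were 24814 to 25846, against 14301 to 18032 on wild-type arrays, and mast cell or basophil markers (4 tested, 1 rose) 5719 to 8173, against 2834 to 5237 on wild-type arrays. In a fit with a replicate block, which pairs samples of equal number, Cpa3 of the mast cells also passed (limma adjusted p = 0.0437; 0.0142 to 0.203 over 14 alternatives). Markers of T cells were dim throughout, at a summed 292 to 498 on knockout-labelled arrays and 486 to 502 on wild-type arrays. Those of B or plasma cells, erythroid cells and megakaryocytes had 0 calls by limma. At an unadjusted limma p under 0.05 they had 0, 1 (lower) and 1 (higher). Summed erythroid markers were lower without overlap, at 1979 to 2432 on knockout-labelled arrays, against 2562 to 5110 on wild-type arrays. The sums of the B or plasma cell and of the megakaryocyte markers overlapped. The part of these marker changes in the results for chromatin genes was not tested. In sorted bulk RNA, fewer cells of a type and less RNA per cell cannot be told apart.

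The histone demethylases held the largest difference. Kdm5b removes methyl groups from the lysine of histone H3 that trithorax enzymes methylate, and so acts against the trithorax mark. Its brightest probe set gave signals of 847, 807 and 705 on knockout-labelled arrays 5, 7 and 8, against 1293, 1689 and 1696 on wild-type arrays 5, 7 and 8. The groups did not overlap, and the highest knockout-labelled array lay well under the lowest wild-type array. The means were 786 ± 73.1 in the knockout-labelled group and 1559 ± 231 in the wild-type group (SD, n = 3 each), a difference of -0.97 ± 0.20 (SE; 95% confidence interval -1.39 to -0.54; limma adjusted p = 0.0176).

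The second Kdm5b probe set is dimmer and gave 365, 344 and 290 on knockout-labelled arrays, against 751, 676 and 571 on wild-type arrays. Its name ends in _s_at, and whether its probes also read other transcripts was not analysed here. Its groups did not overlap either, and its difference was -0.96 ± 0.23 (SE; limma adjusted p = 0.0340). The order of the wild-type arrays was not the same in the 2 probe sets, since wild-type array 5 was the dimmest for the brighter one and the brightest for the dimmer one. The fall in the brightest probe set passed the threshold in 13 of 16 alternative settings, with limma adjusted p-values of 0.0100 to 0.0964. It was lost without knockout-labelled array 7 (0.0568), knockout-labelled array 8 (0.0964) or wild-type array 7 (0.0837), while its difference stayed between -1.10 and -0.89.

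Kdm5a, the closest relative of Kdm5b on the list and an enzyme of the same reaction, had signals of 328, 371 and 408 on knockout-labelled arrays, against 524, 688 and 456 on wild-type arrays. All 3 knockout-labelled arrays lay below the wild-type ones, but the gap between the highest of the first and the lowest of the second was small. The difference of -0.56 ± 0.24 (SE) missed the adjusted threshold in limma (adjusted p = 0.217).

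The promoter of Kdm5b is shown with those of Kdm6a and Smarca2, described further below, because these were the chromatin regulator genes, members and others together, that passed the threshold by their brightest probe set. The sequences are the 250 bases before the RefSeq start of each gene in GRCm38.p6, all on the plus strand, at chr1:134559928-134560177 for Kdm5b, chrX:18162325-18162574 for Kdm6a and chr19:26604910-26605159 for Smarca2. Capitals mark CG dinucleotides, the bases that DNA methyltransferases act on.
Kdm5b: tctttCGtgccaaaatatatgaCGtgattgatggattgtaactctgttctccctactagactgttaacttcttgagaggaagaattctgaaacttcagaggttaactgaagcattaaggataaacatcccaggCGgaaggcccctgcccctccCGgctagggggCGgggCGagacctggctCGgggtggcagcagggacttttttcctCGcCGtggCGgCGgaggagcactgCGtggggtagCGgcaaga
Kdm6a: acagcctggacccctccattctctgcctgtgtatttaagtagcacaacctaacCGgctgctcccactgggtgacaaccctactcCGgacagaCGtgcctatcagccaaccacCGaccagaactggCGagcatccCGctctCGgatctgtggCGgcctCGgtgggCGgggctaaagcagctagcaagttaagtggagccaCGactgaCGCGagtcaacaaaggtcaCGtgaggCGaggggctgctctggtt
Smarca2: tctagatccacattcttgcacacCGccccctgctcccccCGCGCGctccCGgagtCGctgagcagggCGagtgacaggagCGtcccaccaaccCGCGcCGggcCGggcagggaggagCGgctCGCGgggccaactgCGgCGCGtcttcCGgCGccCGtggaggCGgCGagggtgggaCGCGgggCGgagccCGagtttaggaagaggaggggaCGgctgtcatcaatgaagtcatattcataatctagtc
The Kdm5b stretch held 13 CG dinucleotides and 54.4% G and C, that of Kdm6a 15 and 59.6%, and that of Smarca2 28 and 68.4%.

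The letters AAATC, which lie at the centre of the DNA sequence that Gfi1 binds, were searched on both strands of RefSeq promoters from 250 bases before to 50 bases after the start, along with the longer TAAATCAC, which contains them. Neither was present in the window of Kdm5b, Kdm6a or Smarca2. Of 32851 promoters, 35.9% held AAATC and 0.578% held TAAATCAC. The table covered 32 member genes with 44 promoters, of which 12 (27.3%) held AAATC and 0 held TAAATCAC. The 12 belonged to 10 genes, Asxl1, Bmi1, Chd4, Dnmt1, Dnmt3b, Eed, Kmt2d, Men1, Rnf2 and Tet1. The member promoters were rich in CG dinucleotides, with a median of 19 and a G and C content of 64.8%, against medians of 6 and 52.4% over all promoters.

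PRC2 had all 5 of its members tested, and 0 of them passed the threshold in either direction, although all 5 differences lay below 0 (median -0.15). Ezh1 and Ezh2 are the alternative catalytic subunits, Eed and Suz12 complete the core, and Jarid2 helps bring the complex to its targets. The alternative catalytic subunits gave different values. Ezh1, the form known from resting and differentiated cells, had signals of 831, 1007 and 899 on knockout-labelled arrays, against 1218, 1634 and 1408 on wild-type arrays, without overlap. The difference was -0.62 ± 0.20 (SE; limma adjusted p = 0.0975), and -0.25 with overlap in a dimmer probe set.

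Ezh2, the form known from dividing cells, was among the brightest members, at 8035, 8886 and 6786 on knockout-labelled arrays, against 10418, 9151 and 6934 on wild-type arrays. Each group held both high and low arrays, and array 8 was the dimmest in both. Its difference was -0.15 ± 0.18 (SE; 95% confidence interval -0.53 to 0.23; limma adjusted p = 0.706). Jarid2 gave 968, 868 and 745 on knockout-labelled arrays, against 1323, 1367 and 1324 on wild-type arrays, and the 3 wild-type arrays lay close together and above all of the others. The difference of -0.64 ± 0.19 (SE) missed the threshold (limma adjusted p = 0.0841), and a dimmer Jarid2 probe set gave -0.43 with overlap.

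Eed gave 1259, 1871 and 1663 on knockout-labelled arrays, against 1440, 1408 and 2031 on wild-type arrays, a difference of -0.02. Suz12 gave 8322, 7111 and 6335 on knockout-labelled arrays, against 7099, 10848 and 6397 on wild-type arrays, a difference of -0.13. The groups of both genes overlapped, and the 3 other tested Suz12 probe sets lay on both sides of 0, at 0.21, -0.17 and 0.12.

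PRC1 had 8 of its 9 members tested, with 0 past the threshold and 7 of 8 differences below 0 (median -0.11). The E3 ubiquitin ligases are Rnf2 and Ring1. Rnf2, which carries most of the complex's activity in many cell types, had signals of 2603, 3196 and 3354 on knockout-labelled arrays, against 4994, 5394 and 3589 on wild-type arrays. The groups did not overlap, though wild-type array 8 lay only just above knockout-labelled array 8. The difference was -0.60 ± 0.19 (SE; limma adjusted p = 0.101), and without wild-type array 8 it was -0.77 with a limma adjusted p of 0.0376, the lowest of 15 alternatives (0.0376 to 0.322). A dimmer Rnf2 probe set gave -0.36, also without overlap. Ring1, the paralogous ligase, was dim and overlapped, at 475, 324 and 263 on knockout-labelled arrays, against 202, 263 and 347 on wild-type arrays, with a difference of 0.36 and a wide 95% confidence interval of -0.28 to 1.0003.

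Bmi1, the PRC1 subunit known for sustaining stem cell self-renewal, gave 2636, 2581 and 2881 on knockout-labelled arrays, against 4413, 3691 and 2439 on wild-type arrays. Wild-type array 8 lay below all knockout-labelled arrays while the other wild-type arrays lay above them. The difference was -0.34 ± 0.21 (SE; limma adjusted p = 0.406), and -0.37 in a second probe set. Leaving out wild-type array 5 gave -0.15 and leaving out wild-type array 8 gave -0.58 (limma adjusted p = 0.102). Among the chromodomain subunits that read the PRC2 mark, Cbx8 had a difference of -0.41, Cbx2 of -0.13 and Cbx7 of -0.05, and all overlapped. The polyhomeotic subunits Phc1 and Phc2 had differences of -0.08 and -0.09. Pcgf2, an alternative to Bmi1 in PRC1, was too dim to test, at 41.7, 151 and 57.9 on knockout-labelled arrays, against 57.3, 54.7 and 159 on wild-type arrays. A second Pcgf2 probe set, also too dim, gave 178, 141 and 51.2 on knockout-labelled arrays, against 33.9, 26.3 and 70.7 on wild-type arrays, with overlap.

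**Figure D2:**
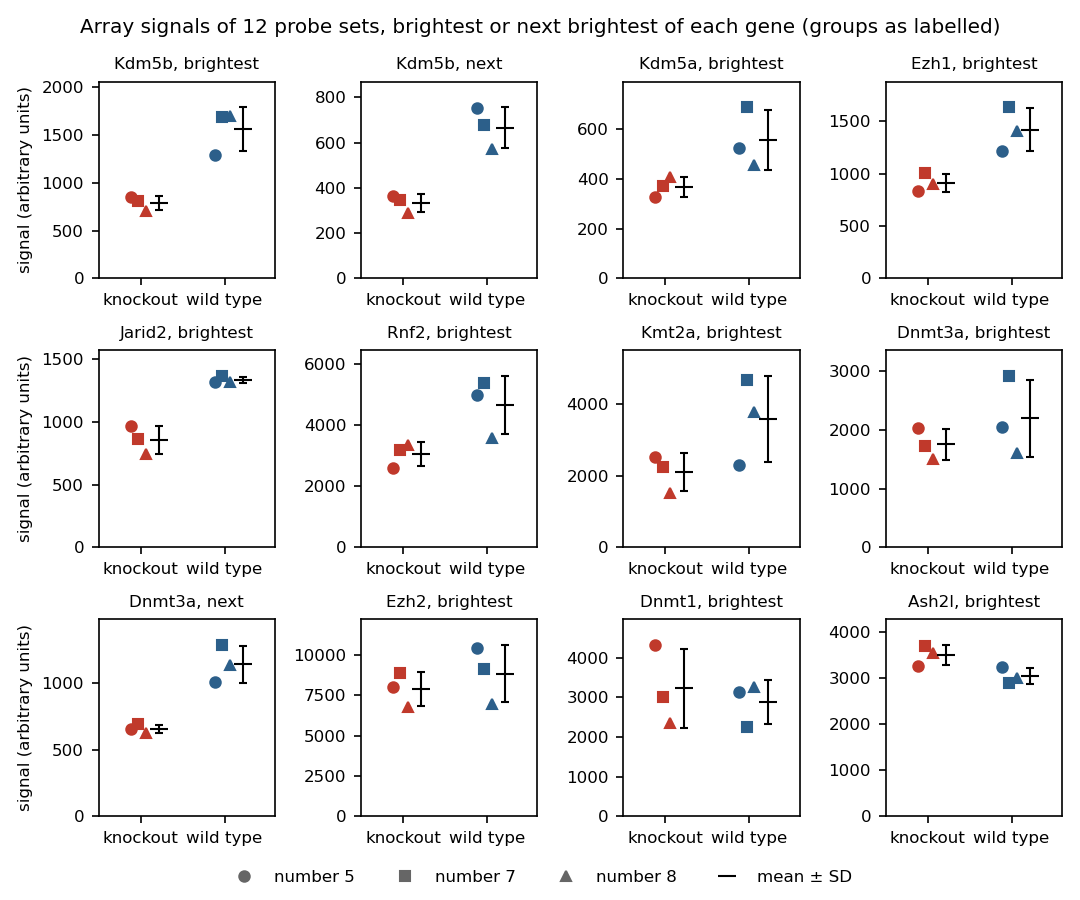
Signal (arbitrary units) of 12 probe sets on the 3 knockout-labelled arrays (left in each panel) and the 3 wild-type arrays (right), with the mean ± SD; marker shapes give the sample numbers 5, 7 and 8. Kdm5b lies between 705 and 847 on knockout-labelled arrays and between 1293 and 1696 on wild-type arrays, while the groups of Ezh2 and Dnmt1 overlap.

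On the trithorax side, 5 of 8 members were tested, 0 passed the threshold and 4 of 5 differences lay below 0 (median -0.14). Kmt2a, the MLL1 methyltransferase that maintains Hox gene expression, had signals of 2529, 2227 and 1501 on knockout-labelled arrays, against 2292, 4654 and 3771 on wild-type arrays. Wild-type arrays 7 and 8 lay above all the others, and wild-type array 5 lay within the knockout-labelled range. The difference was -0.75 ± 0.26 (SE; limma adjusted p = 0.129), and without wild-type array 5 it was -1.03 with a limma adjusted p of 0.0333, the lowest of 16 alternatives (0.0333 to 0.405). A dimmer Kmt2a probe set gave 357, 429 and 434 on knockout-labelled arrays, against 636, 702 and 566 on wild-type arrays, without overlap, and its difference was -0.62 (limma adjusted p = 0.135).

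Kmt2c, a methyltransferase of enhancers, gave 1339, 1079 and 980 on knockout-labelled arrays, against 1056, 1969 and 1580 on wild-type arrays. As for Kmt2a, wild-type array 5 lay within the knockout-labelled range, and the difference was -0.40 (limma adjusted p = 0.379). Kmt2d, its paralogue, was too dim to test, at 237, 132 and 121 on knockout-labelled arrays, against 53.2, 155 and 61.8 on wild-type arrays. Men1, the menin cofactor of Kmt2a, had a difference of -0.14 with overlap.

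The core subunits shared by the trithorax complexes had differences nearer to 0 or above it. Ash2l gave 3253, 3680 and 3536 on knockout-labelled arrays, against 3227, 2891 and 3000 on wild-type arrays. The knockout-labelled arrays all lay above, but the lowest of them exceeded the highest wild-type array by little, and the difference was 0.20 ± 0.16 (SE; limma adjusted p = 0.540). A dimmer Ash2l probe set gave 0.36, again without overlap. Wdr5 had a difference of -0.05 by its brightest probe set, with overlap, and of 0.43 by a dimmer one, without overlap (limma adjusted p = 0.349).

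For DNA methylation, 4 of 6 members were tested, 0 passed the threshold by their brightest probe set, and 2 differences lay on each side of 0. Dnmt1, the maintenance methyltransferase that copies methylation after replication, gave 4314, 3007 and 2348 on knockout-labelled arrays, against 3139, 2258 and 3255 on wild-type arrays. The groups overlapped widely, and the difference was 0.13 ± 0.23 (SE; limma adjusted p = 0.809), with 0.20 in a dimmer probe set. Dnmt3b, a de novo methyltransferase, had differences of 0.04 and -0.08 in its 2 tested probe sets. Tet1, which oxidises methylated cytosine, was dim, at 235, 286 and 134 on knockout-labelled arrays, against 225, 270 and 271 on wild-type arrays, with a difference of -0.27.

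Dnmt3a, the de novo methyltransferase whose loss is known to expand haematopoietic stem cells, depended on the probe set. The brightest gave 2027, 1735 and 1506 on knockout-labelled arrays, against 2059, 2919 and 1616 on wild-type arrays, with overlap and a difference of -0.29 ± 0.22 (SE; limma adjusted p = 0.522). The next brightest gave 653, 691 and 627 on knockout-labelled arrays, against 1008, 1286 and 1140 on wild-type arrays, and here the groups were well apart. Its means were 657 ± 31.9 in the knockout-labelled group and 1145 ± 139 in the wild-type group (SD, n = 3 each), and it fell by 0.78 ± 0.20 (SE; limma adjusted p = 0.0443). The other tested Dnmt3a probe sets had differences of -0.18 and -0.21. The call for this second probe set held in 4 of 14 alternative settings and in 0 of the 6 that leave out 1 array, with limma adjusted p-values of 0.0381 to 0.181. Which transcripts or exons these probe sets read was not analysed here.

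**Figure D3:**
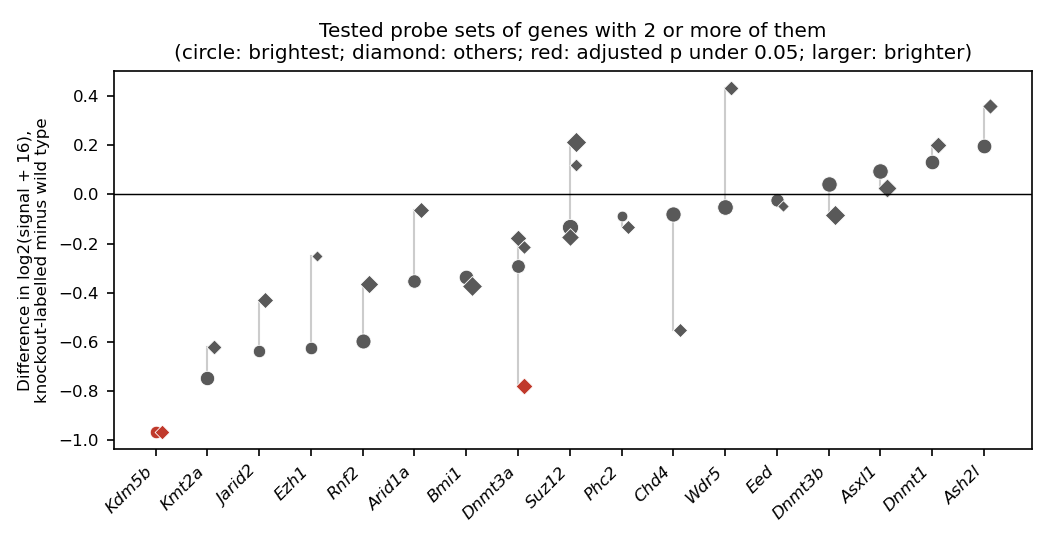
Difference in log2(signal + 16), knockout-labelled minus wild-type arrays, of each tested probe set of the 17 members with 2 or more; circles are the brightest probe set, diamonds the others, a larger marker is a brighter probe set, and red marks an adjusted p under 0.05. Both Kdm5b markers lie near -0.97, and 1 of 4 Dnmt3a markers is red, at -0.78.

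Of the 17 members with at least 2 tested probe sets, 14 had all of them on 1 side of 0, and Suz12, Wdr5 and Dnmt3b did not. Over all 50 tested member probe sets, 3 passed the threshold, all lower, namely both of Kdm5b and 1 of Dnmt3a. That is 6% of the 50, against 2.19% of all tested probe sets in the lower direction. The groups did not overlap in 9 probe sets (18%) in the lower and 4 (8%) in the higher direction, against 12.1% and 11.9% of all tested probe sets. These shares count genes such as Kdm5b more than once, and by brightest probe set 3.45% of the tested members fell.

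Among the remaining members, Setdb1, which methylates histone H3 in heterochromatin and at silenced retroelements, had a difference of 0.03. Nsd1, another methyltransferase of histone H3, was too dim to test, at 193, 133 and 91.1 on knockout-labelled arrays, against 102, 82.0 and 110 on wild-type arrays. Asxl1, a cofactor of the deubiquitinase that removes the PRC1 mark, differed by 0.10. Smarca4, the BRG1 ATPase of the BAF remodelling complexes, gave 7573, 6750 and 7217 on knockout-labelled arrays, against 4957, 7050 and 6527 on wild-type arrays. The difference of 0.23 ± 0.16 (SE; limma adjusted p = 0.485) came with overlap, wild-type array 5 being the lowest. Arid1a, the DNA-binding BAF subunit, differed by -0.35 with a wide spread in both groups, at 1101, 1957 and 1540 on knockout-labelled arrays, against 1024, 2801 and 2415 on wild-type arrays. Leaving out wild-type array 5 gave -0.80 (limma adjusted p = 0.0968), and leaving out wild-type array 7 gave -0.08. Chd4, the ATPase of the NuRD complex, differed by -0.08 in its brightest probe set and by -0.55 in a dimmer one (limma adjusted p = 0.260).

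Arrays did not contribute evenly to the members' values. The median deviation of the 29 members from their own mean over the 6 arrays was -0.07, -0.03 and -0.15 on knockout-labelled arrays 5, 7 and 8, against -0.01, 0.21 and 0.08 on wild-type arrays 5, 7 and 8. Among the members, wild-type array 7 was the highest and wild-type array 5 the closest to the knockout-labelled arrays. Over all tested probe sets the median deviation was 0.023, 0.031 and -0.046 on knockout-labelled arrays 5, 7 and 8. On wild-type arrays 5, 7 and 8 it was 0.016, 0.015 and 0.0075. The median signal was lowest on knockout-labelled array 8, at 286, against 318 to 335 on the other 5 arrays. Wild-type array 7 also had the largest share of probe sets above the brightest Bacillus control, 74.4%, against 67.0% to 73.4% on the other 5 arrays. The part of array brightness in the members' values was not tested.

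Pairs of paralogues were compared within each array, as the difference between 2 probe sets in log2(signal + 16). Signals of different probe sets cannot be set against each other as amounts, so only the shift between the groups is read. Ezh2 minus Ezh1 was 3.09 ± 0.18 on knockout-labelled arrays and 2.61 ± 0.41 on wild-type arrays (SD, n = 3 each), a shift of 0.47 (exact two-sided permutation p = 0.2). Kdm5b minus Kdm5a was 1.06 ± 0.28 on knockout-labelled arrays and 1.47 ± 0.34 on wild-type arrays, a shift of -0.41 (exact two-sided permutation p = 0.3). The shifts of Dnmt3b minus Dnmt3a, 0.33, and of Cbx8 minus Cbx7, -0.36, had exact p-values of 0.4 and 0.5. With 3 arrays against 3 the smallest possible p is 0.1, and after Benjamini-Hochberg adjustment over the 4 pairs every p was 0.5. This test therefore could not pass its threshold and ignores the sample numbers. Within the numbers 5, 7 and 8 the shift of Ezh2 minus Ezh1 was 0.17, 0.65 and 0.61, above 0 in 3 of 3, while the shifts of the other pairs lay on both sides of 0. These within-number shifts were not tested.

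Other genes of the same complexes were read in the same way. Of 71 listed, 48 had a probe set with 1 symbol and 44 were tested. At the adjusted threshold 0 rose and 2 fell (4.55%, against 2.19% of all tested probe sets). Limma's unadjusted p was under 0.05 for 2 (4.55%) in the higher and 7 (15.9%) in the lower direction, against 9.08% and 10.5% of all tested probe sets. The differences of 26 of the 44 (59.1%) lay below 0, with a median of -0.05, against 75.9% and -0.13 for the members. The groups did not overlap for 3 genes (6.82%) in the higher and 5 (11.4%) in the lower direction, which is no more than the 11.9% and 12.1% of all tested probe sets.

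Kdm6a, the X-linked demethylase that removes the PRC2 mark and a subunit of the Kmt2c and Kmt2d complexes, was the first of the 2 that fell. It had signals of 1341, 1261 and 1186 on knockout-labelled arrays, against 2309, 2421 and 1955 on wild-type arrays, without overlap. It fell by 0.81 ± 0.18 (SE; limma adjusted p = 0.0250), and a dimmer probe set gave -0.47 (limma adjusted p = 0.307). The call held in 8 of 16 alternative settings (adjusted p-values by limma of 0.0226 to 0.307). Among the arrays left out in turn it held only without wild-type array 8 (0.0243), and it was lost without knockout-labelled array 5 (0.05005), 7 (0.0787) or 8 (0.115) and without wild-type array 5 (0.0566) or 7 (0.114).

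Xist, the RNA of the inactive X chromosome, gave 23329, 19354 and 21070 on knockout-labelled arrays, against 29586, 33700 and 26782 on wild-type arrays, so it was high on all 6. Its difference was -0.50 ± 0.14 (SE; limma adjusted p = 0.0615; 0.0342 with a replicate block and 0.0342 to 0.226 over 14 alternatives), and the Y-linked Eif2s3y lay between 4.31 and 25.4 on all arrays. The part of the X chromosome in the fall of Kdm6a was not tested.

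Smarca2, the BRM ATPase and paralogue of Smarca4, gave 2202, 2221 and 1817 on knockout-labelled arrays, against 3069, 3864 and 3196 on wild-type arrays, also without overlap. It fell by 0.69 ± 0.17 (SE; limma adjusted p = 0.0452), and a dimmer probe set gave -0.23 with overlap. The call held in 5 of 16 alternative settings and in 0 of the 6 that leave out 1 array, where the limma adjusted p was 0.0542 to 0.185.

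The next lower genes did not pass. Kdm3a, a demethylase of the heterochromatin mark, gave 1006, 1559 and 1465 on knockout-labelled arrays, against 2186, 3150 and 1768 on wild-type arrays, without overlap and with a difference of -0.79 ± 0.24 (SE; limma adjusted p = 0.0843). It passed in 2 of 14 alternatives (0.0405 to 0.305), with a replicate block (0.0458) and without wild-type array 8 (0.0405). Scml2, a PRC1-associated protein, had a difference of -0.67 (limma adjusted p = 0.221). At the other end stood Uhrf1, which brings Dnmt1 to newly copied DNA, with signals of 944, 980 and 1175 on knockout-labelled arrays, against 792, 495 and 652 on wild-type arrays. The knockout-labelled arrays were all higher, and the difference was 0.68 ± 0.22 (SE; limma adjusted p = 0.109). Dpy30, a core subunit of the trithorax complexes, followed at 0.42 (limma adjusted p = 0.227), Smarcc1, a BAF scaffold, at 0.33 (0.347), and Mbd4, a glycosylase that binds methylated DNA, at 0.32 (0.633).

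Dnmt1, Uhrf1 and Ezh2 are known to follow replication, so S phase genes are given beside them. Of 25 listed, 22 were tested, and by their brightest probe sets 0 passed the adjusted threshold by limma. A dimmer probe set of Rrm2 did pass, in the higher direction, with its values given in the last paragraph. By the brightest probe sets, limma's unadjusted p was under 0.05 for 7 in the higher and 0 in the lower direction. Over all tested probe sets the shares at that level were 9.08% and 10.5%. The differences of 17 of the 22 lay above 0, and their median was 0.18. A difference below 0 was found for 22.7% of them, against 51.1% of all tested probe sets. With a replicate block on the sample number 1 rose, the DNA ligase Lig1 (0.47; limma adjusted p = 0.0424, against 0.124 without the block and up to 0.331 over 14 alternatives). The summed signal of the 23 S phase genes with a probe set was 164130 to 171297 on knockout-labelled arrays, against 148494 to 159468 on wild-type arrays, without overlap. The part of replication in the values of Dnmt1, Uhrf1 and Ezh2 was not tested.

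**Figure D4:**
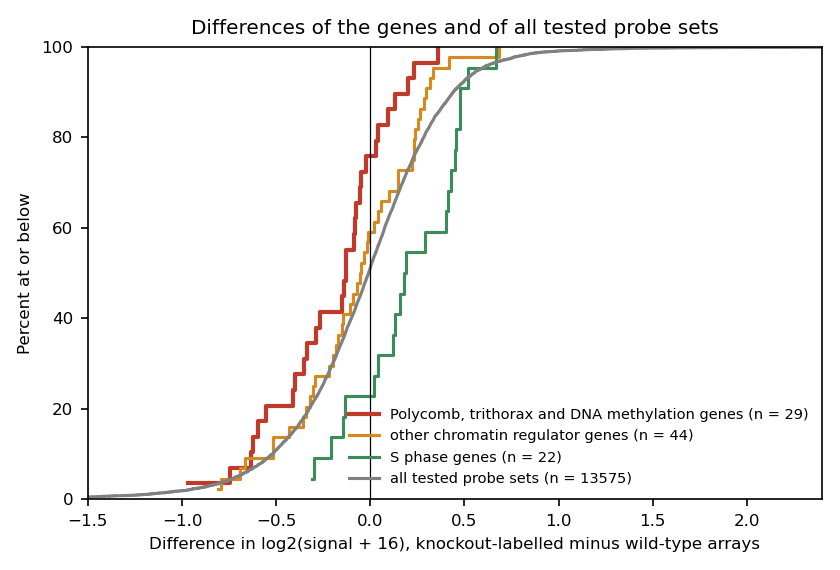
Percent of genes or probe sets at or below each difference in log2(signal + 16), knockout-labelled minus wild-type arrays, for the 29 members (red), 44 other chromatin regulator genes (orange), 22 S phase genes (green) and all 13575 tested probe sets (grey). The curve of the members crosses 0 at 75.9% and that of all probe sets at 51.1%, and the S phase genes lie to the right.

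Genes that textbooks list as Polycomb targets were the last group. Of 13 listed, 6 were tested, and 0 rose and 1 fell (16.7%, against 2.19% of all tested probe sets). Hoxa5, a homeobox gene of the HoxA cluster, had signals of 467, 394 and 318 on knockout-labelled arrays, against 629, 1039 and 855 on wild-type arrays, without overlap. It fell by 1.05 ± 0.25 (SE; limma adjusted p = 0.0331), and the call held in 10 of 16 alternative settings (limma adjusted p of 0.0224 to 0.163). It was lost without knockout-labelled array 7 (0.0905) or 8 (0.143) and without wild-type array 7 (0.163) or 8 (0.0608).

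Hoxa9, a HoxA gene that sustains progenitor growth, gave 11278, 10715 and 10436 on knockout-labelled arrays, against 16220, 15681 and 13942 on wild-type arrays. The groups did not overlap, and the difference of -0.50 ± 0.13 (SE) had a limma adjusted p of 0.0594, or 0.0295 with a replicate block and 0.0295 to 0.200 over 14 alternatives. A dimmer Hoxa9 probe set gave -0.02. Hoxa10 (-0.87), Meis1 (-0.36), Hoxb4 (-0.27) and Gata4 (-0.15) did not pass. All 6 tested differences thus lay below 0, against 51.1% of all tested probe sets. Hoxa10 gave 272, 147 and 157 on knockout-labelled arrays, against 341, 341 and 375 on wild-type arrays. The filter level of about 198 lay above knockout-labelled arrays 7 and 8 and below every wild-type array. Cdkn2a, Cdkn2b, Hoxa7, Gata6, Pax6, Neurog1 and Sox17 were too dim to test. Their brightest probe sets lay on both sides of 0, at -0.17, 0.38, -0.31, 0.61, -0.13, -0.60 and 0.09 in that order. The tested genes therefore do not stand for all 13 listed. The Cdkn2a locus, which Bmi1 is known to silence, gave 146, 86.3 and 56.3 on knockout-labelled arrays, against 87.2, 92.5 and 135 on wild-type arrays, at or near the level of the Bacillus controls of 100.2 to 162 on these arrays.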

How the data were processed

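RNA from 6 sorted LSK samples, 3 labelled Gfi1 knockout and 3 wild type, was amplified in 2 rounds from 10 ng each, per the labels' protocols. The deposited values are linear intensity values, 1 signal per probe set and array, made by the authors with MAS5 per the submitters' processing notes. The sources used here give no MAS5 version or settings. Each column was already scaled to a mean of 1000.33 to 1000.37 after trimming 2% from each end. After 2 rounds of amplification signals favour the 3' end of transcripts, and the 3' over 5' ratio was 4.30 to 6.11 for Gapdh and 1.15 to 1.47 for actin over the arrays. The number of arrays limits the precision.

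Of 22690 probe sets, 64 controls were left out. Of the other 22626, 20380 had 1 gene symbol, 691 several and 1555 none, and only those with 1 were named. The RefSeq table of GRCm38.p6 matched 20351 by gene identifier and changed 0 symbols. Log2(signal + 16) was taken, and the brightest 60% by mean log2 value, 13575 probe sets with an average signal above about 198, were tested with limma 3.58.1 in R 4.3.3 (lmFit, eBayes with trend, two-sided), adjusted by the Benjamini-Hochberg method over all of them. The script was tested on simulated data. The labels do not say whether samples are separate mice, so a p-value reflects only how far these particular samples spread, which may be technical.

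To check for pairing, each sample's deviations from its group mean were correlated between the groups. The correlation was 0.159, 0.168 and 0.238 for equal numbers (5, 7 and 8) and -0.134 to -0.0307 for unequal ones. Because deviations sum to 0 within a group, positive values for equal numbers bring negative ones for unequal numbers, which add no further evidence. On the values for equal numbers, the numbers were taken to pair the samples, and a fit with the number as a block was an alternative. The main fit left the numbers out, so p-values given without mention of a block ignore this pairing. The other alternatives were pseudocounts of 1 and 64, no filter, median centring, quantile and cyclic loess normalization, eBayes without trend, the mean over a gene's probe sets, leaving out suffixed probe sets, and leaving out each array. Suffixed probe sets are those whose names end in _s_at, _x_at, _a_at, _r_at or _f_at.

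The members, the gene lists and the rule for named genes were chosen with earlier results of these data known. The rule named all members, and of the other chromatin regulators and of the Polycomb targets all past the threshold and the 4 highest and 4 lowest differences. The genes whose repeat fits are quoted beyond this rule were chosen after their values were seen. The counts of CG dinucleotides were added after the values were seen. Brightest Bacillus controls were taken over 27 control probe sets.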

Additional observations from a re-analysis of the deposited data

How the results depend on the processing

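Over the 16 alternatives 0 members rose, and the members' median difference ranged from -0.18 to -0.07. The count of members that fell stayed at 1 except when 1 array was left out, where it was 0 to 2. The count of other chromatin regulator genes that fell was 1 with no filter or with the mean over all probe sets of a gene, 3 with the replicate block, 0 with median centring, without the trend or without suffixed probe sets, and 0 to 2 with 1 array left out. Without suffixed probe sets, Kdm6a and Smarca2 were read through their dimmer probe sets, at -0.47 and -0.23. The count of Polycomb targets that fell was 0 with no filter or without the trend, 2 with quantile or cyclic loess normalization or with the replicate block, and 0 to 1 with 1 array left out. The S phase genes that rose were 1 with the replicate block or without suffixed probe sets, and 0 to 1 with 1 array left out. With the replicate block 1 member fell, Kdm5b (limma adjusted p = 0.0211), so the paired fit changed no call among members. The Gfi1 difference was 0.45 to 1.105 with 1 array left out. Small differences changed sign: Cbx7 to 0.0031 with median centring, 0.032 with quantile and 0.018 with cyclic loess normalization, Eed to 0.033 and Wdr5 to 0.0061 with median centring, and Wdr5 to 0.19 and Dnmt3b to -0.021 with the mean over probe sets. With 1 array left out the ranges crossed 0 for Cbx7 (-0.30 to 0.18), Eed (-0.15 to 0.15), Wdr5 (-0.13 to 0.046), Dnmt3b (-0.037 to 0.16), Men1 (-0.25 to 0.0065), Setdb1 (-0.074 to 0.090), Dnmt1 (-0.10 to 0.34), Tet1 (-0.48 to 0.025), Suz12 (-0.28 to 0.10), Asxl1 (-0.10 to 0.29) and Chd4 (-0.21 to 0.082), none of which was called in any setting. Leaving out 1 array also moved uncalled differences by over 1.5 times on the same side of 0, with ranges of -0.80 to -0.08 for Arid1a, -0.58 to -0.15 for Bmi1, -0.49 to -0.06 for Dnmt3a, -0.64 to -0.20 for Kmt2c, -0.70 to -0.40 for Cbx8, -0.31 to -0.02 for Ezh2, -0.22 to -0.04 for Cbx2, -0.15 to -0.0005 for Phc1, -0.16 to -0.0028 for Phc2, 0.13 to 0.54 for Ring1 and 0.08 to 0.33 for Smarca4. The cause of these changes was not tested. Of all tested probe sets, 196 rose and 297 fell in the main setting, 69 and 119 with no filter, 57 and 124 without the trend, 169 and 193 with median centring, 320 and 479 with the replicate block, and 35 to 270 and 89 to 288 with 1 array left out. Dim members such as Pcgf2, Kmt2d and Nsd1 lie near the level of the Bacillus controls. With 3 arrays a group, the members' intervals reached 0.43 log2 units to either side of the estimate at the median.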

Other observations

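Some other genes of the same complexes, chosen after their values were seen, had several probe sets that lay on the same side of 0 without passing the threshold. Kmt2e, a distant relative of Kmt2a without known methyltransferase activity, gave 1798, 1836 and 1759 on knockout-labelled arrays, against 2436, 2723 and 2588 on wild-type arrays, without overlap and with a difference of -0.52 (limma adjusted p = 0.101). A dimmer Kmt2e probe set gave -0.94 (limma adjusted p = 0.150). Pbrm1, a subunit of the PBAF remodelling complex, differed by -0.15 in its brightest probe set, by -0.51 in the next (limma adjusted p = 0.122), where the groups did not overlap, and by -0.31 in the third. Actl6a, the BAF subunit of progenitor cells, differed by 0.04 and 0.40 in its 2 brightest probe sets. Of the S phase genes, a dimmer probe set of the ribonucleotide reductase gene Rrm2 did pass the threshold and rose. It gave 1668, 1703 and 1411 on knockout-labelled arrays, against 764, 431 and 819 on wild-type arrays. The difference was 1.28 (limma adjusted p = 0.0129), while the brightest Rrm2 probe set differed by 0.13.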
